A study of Mus musculus with 9 samples.

Results

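The collagen chain genes are the genes whose symbol reads Col, a type number, the letter a and a chain number, each of which encodes an alpha chain of a collagen. This rule, which uses the name alone, found 44 genes among the 40213 gene symbols of the count files: 11 fibrillar chains, 6 basement membrane chains of type IV, 9 chains of the FACIT group (fibril-associated collagens with interrupted triple helices) and 18 chains of other types. They were measured by RNA-seq in primary calvarial pre-osteoblasts, the bone-forming precursors of the skull vault, from 3-day-old wild-type mouse pups. The cells were kept under normoxia in osteogenic medium with L-AA at 50 μg/ml and β-Gp at 5 mM, and were infected on day 3. Group Ad-C had a control adenovirus, group Ad-Hif1a an adenovirus for Hif1a and group Ad-Hif2a one for Hif2a, and 3 libraries per group were made from cells harvested on day 6. The comparison asks how the collagen repertoire of these cells stood when either hypoxia-inducible factor (HIF) was made in excess. The dose of virus used for the sequenced cells is not given in the sources used here, and the sample labels do not say how the 3 libraries of a group were derived. The study's reporting states that n stands for independent experiments or mice. The p-values for single genes measure the spread between these libraries that is left after a term for the replicate number.

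Collagens are built from 3 alpha chains wound into a triple helix. Fibrillar collagens form the ropes that give bone, skin and tendon their tensile strength, and type I, made of Col1a1 and Col1a2 products, is the main protein of bone matrix. Type IV forms the sheets of basement membranes, FACIT chains sit on the surface of fibrils, and the other types form beaded filaments, hexagonal networks, anchoring fibrils or proteins that span the cell membrane. Each chain is hydroxylated and folded in the endoplasmic reticulum, trimmed outside the cell and cross-linked, and several of the enzymes for these steps are known targets of HIF.

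The libraries held 14372589 to 18623403 counts. Levels are CPM, counts set against the library total and scaled by TMM, in the order of replicates 1, 2 and 3. Changes are log2 fold changes ± their standard error (SE) from the quasi-likelihood test of edgeR, with p-values adjusted by Benjamini-Hochberg over the 14413 genes that passed its filter on low counts. A chain rose or fell where its adjusted p was under 0.05. Hif1a, the gene carried by the first vector, stood at 186 to 193 CPM with Ad-C, at 1240.3 to 2325 CPM in the Ad-Hif1a libraries and at 447 to 585 CPM in the Ad-Hif2a libraries. Epas1, the mouse symbol of Hif2a, stood at 41.9 to 48.8, 407 to 679 and 823 to 2181 CPM, so each vector group was highest in its own gene and the libraries of both were above Ad-C in both genes. Ad-Hif1a replicate 1 and Ad-Hif2a replicate 3 stood apart. Mitochondrial transcripts made up 2.95 and 2.82% of their counts, against 3.69% in Ad-Hif1a replicate 2 and 5.20 to 6.37% in the other libraries. Across genes, the deviation of their log2 CPM from the Ad-C mean had Spearman correlations of -0.43 and -0.49 with transcript length, against -0.38 to -0.10 in the other vector libraries and -0.22 to 0.27 in Ad-C, so that longer transcripts were lower in these libraries. The part of either feature in the results below was not tested. Of the markers of the labelled cells, all 10 osteoblast genes had counts, and their summed level, mostly Spp1, was 3734 to 3961 CPM in the Ad-C libraries, 4015 to 5361 in those of Ad-Hif1a and 4177 to 6663 in those of Ad-Hif2a, while Bglap, which encodes osteocalcin, stood at 4.14 to 5.99 CPM with Ad-C. None of the 10 rose, while 4 fell with Ad-Hif1a and 6 with Ad-Hif2a, beside 5.22% and 7.72% of all genes tested. The median log2 fold changes of the 10 were -1.20 and -1.11. Among those that fell with both vectors were Bglap, at -2.18 and -2.04, Sp7, which encodes the osteoblast transcription factor osterix, at -1.25 and -1.13, and Alpl, which encodes alkaline phosphatase, at -1.14 and -1.08, whereas Spp1, at 0.37 and 0.61, was not called. The part of this change in the results on collagen chains was not tested.

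Most collagen chains had negative log2 fold changes with either vector, and of those that passed the test with all libraries more fell than rose. With Ad-Hif1a, 3 chains rose (Col5a3, Col18a1 and Col23a1) and 5 fell (Col2a1, Col24a1, Col14a1, Col6a3 and Col26a1). With Ad-Hif2a, the same 3 rose and 8 fell, the 5 above with Col11a1, Col6a2 and Col15a1. That split changed when transcript length was taken into account. With each library's trend on length removed, a choice made after seeing the data, 5 rose and 5 fell with Ad-Hif1a. Over all genes tested in that fit, 7.72% rose and 7.24% fell. The 5 chains that fell were the same, and Col3a1 and Col5a2 joined the rises. With Ad-Hif2a 7 rose and 6 fell, beside 9.64% and 9.46% of all genes tested, and Col6a2 and Col15a1 were no longer called. Of the 44 genes, 37 passed the filter. In these, with no trend removed, the share that rose with Ad-Hif1a was 8.11%, against 6.04% of all genes tested. The share that fell was 13.5%, against 5.22%. With Ad-Hif2a the shares were 8.11% against 7.87% for rises and 21.6% against 7.72% for falls. Col26a1 passed the filter through its Ad-C libraries alone and could be called only as a fall. Without it, 4 of 36 chains (11.1%) fell with Ad-Hif1a and 7 (19.4%) with Ad-Hif2a. The median log2 fold change of the chains tested was -0.27 with Ad-Hif1a and -0.43 with Ad-Hif2a, beside 0.0073 and 0.013 over all genes tested, and 24 and 28 of the 37 were negative. Among the negative chains were Col26a1, Col9a2 and Col10a1, which would not have passed the filter without their Ad-C libraries. The 3 Ad-C libraries serve in both comparisons, so that their values stand side by side here and neither supports the other.

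**Figure D1:**
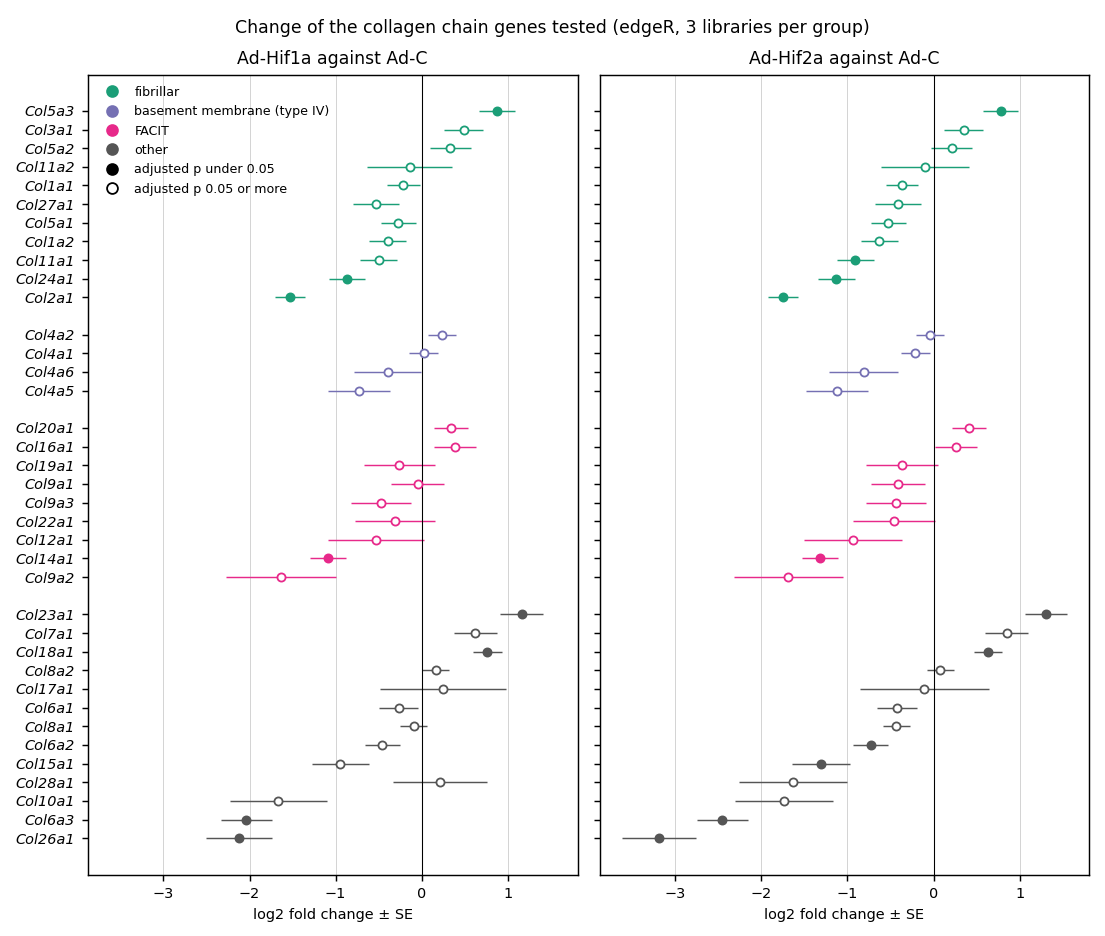
Log2 fold change (x axis, with 1 SE to each side) of the 37 chains tested, by class, against Ad-C, on the left for Ad-Hif1a and on the right for Ad-Hif2a, with filled points for an adjusted p under 0.05. Col6a3 and Col26a1 lie furthest to the left in both panels, and Col5a3, Col18a1 and Col23a1 are the filled points to the right of 0.

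The counts of chains called depended on single libraries. Leaving out Ad-C replicate 1, 2 or 3 left 2, 3 and 2 chains called with Ad-Hif1a and 3, 5 and 4 with Ad-Hif2a. Leaving out Ad-Hif1a replicate 1 or 2 left 2 and 1 called with Ad-Hif1a, and leaving out Ad-Hif1a replicate 2 left 6 called with Ad-Hif2a. Without Ad-Hif2a replicate 1 or 2, 4 and 7 were called with Ad-Hif2a, and without Ad-Hif2a replicate 3 the counts were 19 and 18. The shares of all genes called in these fits are not given here, so the counts are not read as a result about the chains. Each of the 11 called chains kept its sign in both comparisons in every alternative that could test it, and Col2a1 was the only chain called in both comparisons in all 20 alternatives. In both comparisons, the vector libraries of each of these 11 chains all lay on the same side of the Ad-C libraries. Leaving out a library could hardly turn such a sign. Every alternative reuses libraries that gave the calls, so that kept signs and calls are no independent support. With library totals alone as the scale, 1 rose and 8 fell with Ad-Hif2a.

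**Figure D2:**
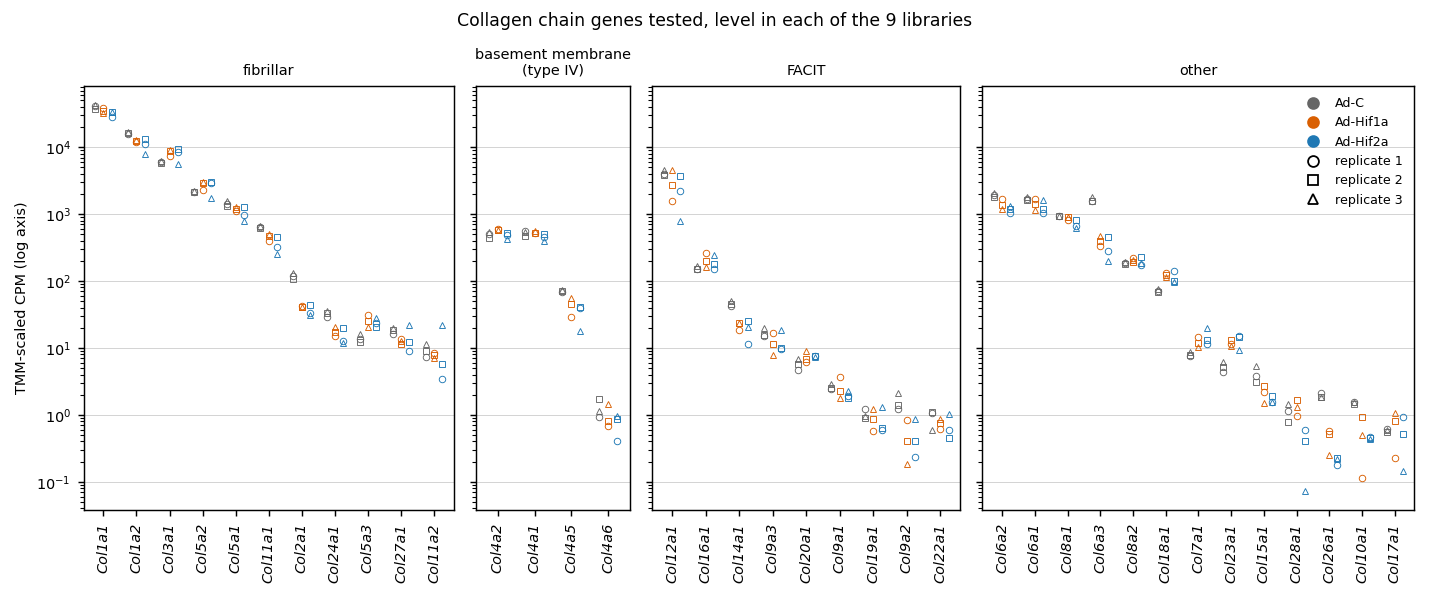
TMM-scaled CPM (log axis) of the 37 collagen chain genes tested, 1 point per library, colored by virus and shaped by replicate, ordered by level within each class. The type I chains lie at 7951 CPM or more in every library, and Col2a1, Col6a3 and Col26a1 show all 6 vector libraries below the Ad-C libraries.

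Type I collagen, the main fibre of bone, was the most abundant per length of transcript and was not called in either comparison. Per kilobase of the longest coding transcript, Col1a1 stood at 6835 and Col1a2 at 3061 CPM with Ad-C, followed by Col3a1 at 1076, by Col6a2 at 418 and Col6a1 at 416, which did not differ beyond their spread, and by Col12a1 at 356 and Col5a2 at 329. Col1a1 stood at 41196, 37784 and 42616 CPM with Ad-C, 38199.8, 34279.6 and 32399 CPM with Ad-Hif1a and 27995, 32969 and 33124 CPM with Ad-Hif2a. Its Ad-Hif2a libraries were all below Ad-C, and its Ad-Hif1a libraries overlapped with Ad-C. The log2 fold changes were -0.21 ± 0.19 with Ad-Hif1a (adjusted p = 0.499) and -0.37 ± 0.19 with Ad-Hif2a (adjusted p = 0.204). Col1a2 stood at 15955, 16156 and 16997 CPM with Ad-C, 11852, 12561 and 12948 CPM with Ad-Hif1a and 10979, 13196 and 7951 CPM with Ad-Hif2a. All 6 vector libraries were below the Ad-C libraries, with Ad-Hif2a replicate 3 far below the rest, and the log2 fold changes were -0.40 ± 0.21 with Ad-Hif1a (adjusted p = 0.284) and -0.63 ± 0.21 with Ad-Hif2a (adjusted p = 0.0887). Col3a1, the single chain of type III, which shares fibrils with type I in soft tissues, stood at 5992, 5835 and 6137 CPM with Ad-C, 7461, 8779 and 8954 CPM with Ad-Hif1a and 8415, 9235 and 5509 CPM with Ad-Hif2a. It was above Ad-C in 5 of the 6 vector libraries, the exception being Ad-Hif2a replicate 3, and its log2 fold changes of 0.49 and 0.35 did not pass the test (adjusted p = 0.218 and 0.291).

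Type V collagen lies inside type I fibrils and sets their width, and of its chains 1 passed the test. Col5a3, the chain found in a minor form of type V, rose, while Col5a1 and Col5a2 were not called. Col5a3 stood at 13.8, 12.1 and 15.9 CPM with Ad-C, 30.99, 24.8 and 20.6 CPM with Ad-Hif1a and 23.4, 20.3 and 28.3 CPM with Ad-Hif2a. Every vector library was above the Ad-C libraries, and the log2 fold changes were 0.88 ± 0.21 with Ad-Hif1a (adjusted p = 0.039) and 0.78 ± 0.21 with Ad-Hif2a (adjusted p = 0.0456). Col5a1 stood at 1417, 1339 and 1565 CPM with Ad-C, 1117, 1186 and 1289 CPM with Ad-Hif1a and 959, 1281 and 794 CPM with Ad-Hif2a. Its vector libraries were all below Ad-C, with log2 fold changes of -0.27 and -0.52 (adjusted p = 0.436 and 0.128). Col5a2 stood at 2135, 2151 and 2249.8 CPM with Ad-C, 2318, 2897 and 3007 CPM with Ad-Hif1a and 2914, 3004 and 1742 CPM with Ad-Hif2a, with log2 fold changes of 0.33 and 0.21 (adjusted p = 0.412 and 0.541). It was above Ad-C in every vector library but Ad-Hif2a replicate 3, so that Col5a1 and Col5a2, partners in the same trimer, lay on opposite sides of Ad-C in 5 libraries.

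The promoter of Col5a3 is shown as that of the fibrillar chain that rose, and the promoter of Col6a3, described further on, as that of the abundant chain with the largest fall. Both are RefSeq windows of build GRCm38.p6, from 250 bases before to 50 after the annotated start, written 5′ to 3′ along the gene, at chr9:20815018-20815317 and chr1:90843922-90844221, both on the minus strand. Capitals mark ACGTG or GCGTG on either strand (CACGT and CACGC in reverse), the core letters of the hypoxia response element.
Col5a3: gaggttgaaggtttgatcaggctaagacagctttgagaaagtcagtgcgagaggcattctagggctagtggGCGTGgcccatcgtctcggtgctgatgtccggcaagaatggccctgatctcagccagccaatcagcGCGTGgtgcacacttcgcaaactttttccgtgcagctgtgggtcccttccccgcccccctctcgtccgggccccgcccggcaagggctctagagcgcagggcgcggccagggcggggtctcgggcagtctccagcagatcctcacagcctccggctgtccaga
Col6a3: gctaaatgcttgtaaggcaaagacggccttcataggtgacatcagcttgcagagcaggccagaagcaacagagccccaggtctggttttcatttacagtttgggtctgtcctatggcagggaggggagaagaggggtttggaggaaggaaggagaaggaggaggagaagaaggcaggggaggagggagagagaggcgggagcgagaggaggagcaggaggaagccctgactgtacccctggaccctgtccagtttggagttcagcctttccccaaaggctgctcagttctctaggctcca
The Col5a3 window held these letters at 2 places that do not overlap, and the Col6a3 window at none. In the first listed window of each gene, they occurred in 13 of the 35 collagen chain genes matched by symbol (37.14%), and in 43.8% of 27018 genes. Of the other called chains with a window, Col6a2 held them at 1 place in its first window, and Col18a1, Col23a1, Col24a1, Col11a1 and Col15a1 held none in theirs. A match is a description of the letters and not a binding site. No window was listed for Col1a1, Col2a1, Col12a1, Col14a1, Col5a2, Col26a1, Col22a1, Col9a3 and Col4a3.

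The fibrillar chains known best from cartilage fell or were not called. Col2a1, the main collagen of cartilage, showed the clearest fall of any chain. It stood at 119, 109 and 129.6 CPM with Ad-C, 42.1, 41.1 and 41.1 CPM with Ad-Hif1a and 33.4, 43.04 and 30.5 CPM with Ad-Hif2a, so that no vector library came near the lowest Ad-C library. The log2 fold changes were -1.53 ± 0.18 with Ad-Hif1a (adjusted p = 0.00243) and -1.75 ± 0.18 with Ad-Hif2a (adjusted p = 0.00117). Col11a1, which joins type II and type I fibrils and limits their width, stood at 636, 620.1 and 658 CPM with Ad-C, 393, 469 and 500.1 CPM with Ad-Hif1a and 325, 456 and 256 CPM with Ad-Hif2a. All vector libraries were below Ad-C, and the log2 fold changes were -0.50 ± 0.21 with Ad-Hif1a (adjusted p = 0.197) and -0.91 ± 0.22 with Ad-Hif2a (adjusted p = 0.0316), so that it fell with Ad-Hif2a alone, a difference between the vectors that did not pass its own test (log2 fold change -0.41, SE 0.22). Col24a1, a minor fibrillar chain of developing bone, stood at 28.7, 32.7 and 35.4 CPM with Ad-C, 15.1, 17.3 and 20.7 CPM with Ad-Hif1a and 12.9, 19.8 and 11.9 CPM with Ad-Hif2a. It fell, with log2 fold changes of -0.87 ± 0.21 with Ad-Hif1a (adjusted p = 0.0415) and -1.13 ± 0.21 with Ad-Hif2a (adjusted p = 0.0138), and no vector library reached the Ad-C libraries. Col11a2 and Col27a1, both known from cartilage, stood at 3.42 to 22.3 CPM, had log2 fold changes of -0.14 and -0.10 and of -0.53 and -0.41, and were not called. In both, Ad-Hif2a replicate 3 was the highest of the 9 libraries, at 22.0 and 22.3 CPM. Col11a2, a partner of Col11a1, stood at 7.40, 8.86 and 11.3 CPM with Ad-C. Its values were 8.44, 7.85 and 7.14 CPM with Ad-Hif1a and 3.42, 5.66 and 22.0 CPM with Ad-Hif2a.

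Other cartilage genes gave a mixed picture beside these chains. Of the 10 chondrocyte markers, 7 were tested, none rose, and 1 fell with Ad-Hif1a and 2 with Ad-Hif2a, beside 5.22% and 7.72% of all genes tested. Cnmd, which encodes chondromodulin, stood at 7.67, 9.14 and 9.25 CPM with Ad-C, 0.680, 0.931 and 1.06 CPM with Ad-Hif1a and 1.00, 0.857 and 1.17 CPM with Ad-Hif2a. Sox9, the transcription factor that drives Col2a1, stood at 81.4, 76.03 and 77.3 CPM with Ad-C, 78.4, 64.8 and 66.9 CPM with Ad-Hif1a and 44.9, 51.2 and 55.3 CPM with Ad-Hif2a, and Acan, which encodes the cartilage proteoglycan aggrecan, was at 0.06 to 1.66 CPM in all 9 libraries. The summed level of the 10 markers was 232 to 252 CPM with Ad-C, 171 to 256 in the Ad-Hif1a libraries and 139.7 to 263 in the Ad-Hif2a libraries, so the groups overlapped, and Snorc was at 0 throughout. In bulk RNA, fewer cells of a type and less RNA per cell cannot be told apart, and the part of such cells in the fall of Col2a1 was not tested.

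Of the basement membrane chains, none was called. Col4a1 and Col4a2, which join in the trimer found in nearly every basement membrane, stayed close to Ad-C. Col4a1 stood at 559, 467 and 545 CPM with Ad-C, 529.6, 515 and 551 CPM with Ad-Hif1a and 457, 509 and 391 CPM with Ad-Hif2a, with log2 fold changes of 0.023 and -0.21 (adjusted p = 0.939 and 0.383). Col4a2 stood at 498, 433 and 533 CPM with Ad-C, 589, 570.4 and 569.7 CPM with Ad-Hif1a and 486, 519 and 418 CPM with Ad-Hif2a, with log2 fold changes of 0.24 and -0.042 (adjusted p = 0.381 and 0.865). For both, the libraries of each vector overlapped Ad-C, apart from Col4a2 with Ad-Hif1a, and the Ad-Hif2a libraries were below the Ad-Hif1a libraries. Col4a5, a chain of the trimers of kidney, eye and ear basement membranes, stood at 69.2, 70.9 and 73.5 CPM with Ad-C, 28.9, 44.8 and 55.4 CPM with Ad-Hif1a and 40.05, 41.6 and 17.7 CPM with Ad-Hif2a. All 6 vector libraries were below Ad-C, the lowest being Ad-Hif2a replicate 3 and Ad-Hif1a replicate 1, and the log2 fold changes were -0.73 ± 0.36 with Ad-Hif1a (adjusted p = 0.248) and -1.12 ± 0.36 with Ad-Hif2a (adjusted p = 0.08). Col4a6, its partner on the X chromosome, stood at 0.413 to 1.74 CPM and was not called.

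Col4a1 and Col4a2 are read in opposite directions from a shared promoter, which is why their windows are shown together. The windows, again from RefSeq on GRCm38.p6, lie at chr8:11312777-11313076 on the minus strand and chr8:11312555-11312854 on the plus strand and overlap, with capitals as above.
Col4a1: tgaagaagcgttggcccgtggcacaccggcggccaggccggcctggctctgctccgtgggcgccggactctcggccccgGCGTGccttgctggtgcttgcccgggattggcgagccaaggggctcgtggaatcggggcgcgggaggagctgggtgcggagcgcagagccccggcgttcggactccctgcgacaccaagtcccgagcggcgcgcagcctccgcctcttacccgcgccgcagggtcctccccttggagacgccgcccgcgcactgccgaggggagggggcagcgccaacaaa
Col4a2: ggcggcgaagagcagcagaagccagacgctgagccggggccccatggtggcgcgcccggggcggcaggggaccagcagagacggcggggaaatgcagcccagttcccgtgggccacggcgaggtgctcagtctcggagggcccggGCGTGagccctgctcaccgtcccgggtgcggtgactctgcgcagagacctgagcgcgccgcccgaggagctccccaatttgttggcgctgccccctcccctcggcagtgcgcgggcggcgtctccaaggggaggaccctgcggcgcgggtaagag
Each window held the hypoxia response element letters at 1 place. Further collagen chain genes lie side by side in the RefSeq annotation, among them Col3a1 with Col5a2, Col6a2 with Col6a1, Col9a1 with Col19a1 and Col4a6 with Col4a5. The annotated Col4a1 and Col4a2 genes overlap by 85 bases and Col4a4 and Col4a3 by 114, and whether the authors' counting used strand there is not given in the sources used here.

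Among the FACIT chains, Col14a1 fell with both vectors and the others were not called. Col14a1, which binds type I fibrils through decorin in tendon and skin, stood at 41.8, 45.8 and 50.1 CPM with Ad-C, 18.6, 23.4 and 23.2 CPM with Ad-Hif1a and 11.6, 24.98 and 20.6 CPM with Ad-Hif2a. All vector libraries lay below Ad-C, and the log2 fold changes were -1.09 ± 0.21 with Ad-Hif1a (adjusted p = 0.0177) and -1.32 ± 0.21 with Ad-Hif2a (adjusted p = 0.007). Col12a1, the most abundant FACIT chain and a component of loaded fibrous tissue and periosteum, stood at 3909, 3878 and 4495 CPM with Ad-C, 1548, 2681 and 4507 CPM with Ad-Hif1a and 2178, 3660.1 and 786 CPM with Ad-Hif2a. Its vector libraries spread widely within each group, with Ad-Hif1a replicate 3 at the highest Ad-C library and Ad-Hif2a replicate 3 at the bottom, and the log2 fold changes were -0.53 ± 0.56 with Ad-Hif1a (adjusted p = 0.567) and -0.94 ± 0.57 with Ad-Hif2a (adjusted p = 0.27). Col16a1, which links fibrils to the pericellular matrix, stood at 151, 153 and 169 CPM with Ad-C, 259, 197 and 163 CPM with Ad-Hif1a and 149, 179 and 242 CPM with Ad-Hif2a. It was highest in Ad-Hif1a replicate 1 and Ad-Hif2a replicate 3, and its log2 fold changes of 0.39 and 0.26 did not pass the test. Of the type IX chains, which coat type II fibrils in cartilage, Col9a2 stood at 22, 25 and 40 counts with Ad-C, 15, 7 and 3 with Ad-Hif1a and 4, 7 and 12 with Ad-Hif2a. Its log2 fold changes of -1.64 and -1.69 carried SEs of 0.64 and 0.64. Col9a1, Col9a3, Col19a1, Col20a1 and Col22a1 stood at 0.457 to 20.1 CPM, with log2 fold changes from -0.47 (Col9a3 with Ad-Hif1a) to 0.41 (Col20a1 with Ad-Hif2a).

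Type VI collagen forms beaded filaments around cells, most often from the products of Col6a1, Col6a2 and Col6a3, and of these Col6a3 alone fell with both vectors. Col6a3 stood at 1576, 1544 and 1771 CPM with Ad-C, 334, 400.4 and 464 CPM with Ad-Hif1a and 276, 448 and 196 CPM with Ad-Hif2a. The vector libraries held between 196 and 464 CPM and none came within 3-fold of the lowest Ad-C library. The log2 fold changes were -2.04 ± 0.29 with Ad-Hif1a (adjusted p = 0.00602) and -2.45 ± 0.30 with Ad-Hif2a (adjusted p = 0.00247), the largest fall of any chain with a mean over 10 CPM in Ad-C. Col6a1 stood at 1669, 1629 and 1821 CPM with Ad-C, 1672, 1397 and 1159 CPM with Ad-Hif1a and 1026, 1178 and 1625 CPM with Ad-Hif2a, with log2 fold changes of -0.27 and -0.43 (adjusted p = 0.487 and 0.227). Col6a2 stood at 1918, 1821 and 2094 CPM with Ad-C, 1690.4, 1383 and 1177 CPM with Ad-Hif1a and 1020.3, 1172 and 1317 CPM with Ad-Hif2a. It was below Ad-C in all 6 vector libraries, and the log2 fold changes were -0.46 ± 0.20 with Ad-Hif1a (adjusted p = 0.201) and -0.73 ± 0.20 with Ad-Hif2a (adjusted p = 0.0488), so that it fell with Ad-Hif2a. The Ad-Hif2a call of Col6a2 held in 10 of 20 alternatives. The change of Col6a2 between the vectors was -0.27 on the log2 scale (SE 0.20) and did not pass the test. Col6a4, Col6a5 and Col6a6, which can take the place of Col6a3 in some tissues, held 0 to 11 counts in every library and were not tested.

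Of the network and anchoring collagens, none was called. Col8a1 and Col8a2, the chains of the hexagonal network of vessel walls and cornea, stood at 616 to 940.5 CPM and at 171 to 226 CPM. Col8a1 had log2 fold changes of -0.10 and -0.43 (adjusted p = 0.715 and 0.102) and Col8a2 of 0.16 and 0.079 (adjusted p = 0.54 and 0.737). Col10a1, the collagen of hypertrophic cartilage, held 28, 26 and 29 counts with Ad-C, 2, 16 and 8 with Ad-Hif1a and 8, 8 and 6 with Ad-Hif2a. These low counts gave log2 fold changes of -1.66 ± 0.56 with Ad-Hif1a (adjusted p = 0.112) and -1.74 ± 0.57 with Ad-Hif2a (adjusted p = 0.0806). Col7a1, which makes the anchoring fibrils under epithelia, stood at 7.62, 7.85 and 8.82 CPM with Ad-C, 14.8, 11.8 and 10.4 CPM with Ad-Hif1a and 11.4, 13.1 and 19.8 CPM with Ad-Hif2a. Every vector library was above Ad-C, and the log2 fold changes of 0.62 and 0.85 did not pass the test (adjusted p = 0.171 and 0.0606).

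The multiplexins, collagens of the outer face of basement membranes whose tails are cut into endostatin-like fragments, moved in opposite directions with Ad-Hif2a, while with Ad-Hif1a Col15a1 did not pass the test. Col18a1, the source of endostatin, rose with both. It stood at 70.4, 68.1 and 76.8 CPM with Ad-C, 132, 122 and 114 CPM with Ad-Hif1a and 142, 101 and 96.4 CPM with Ad-Hif2a, with every vector library above the Ad-C libraries and log2 fold changes of 0.76 ± 0.17 with Ad-Hif1a (adjusted p = 0.0282) and 0.63 ± 0.17 with Ad-Hif2a (adjusted p = 0.0428). Col15a1 stood at 3.86, 3.08 and 5.29 CPM with Ad-C, 2.21, 2.68 and 1.49 CPM with Ad-Hif1a and 1.53, 1.89 and 1.53 CPM with Ad-Hif2a. All vector libraries were below Ad-C, and the log2 fold changes were -0.95 ± 0.33 with Ad-Hif1a (adjusted p = 0.127) and -1.31 ± 0.34 with Ad-Hif2a (adjusted p = 0.0423), so that it fell with Ad-Hif2a. Vessel cells are known to express both genes. The 8 endothelial markers were near the bottom of the scale, with a summed level of 6.04 to 7.29 CPM with Ad-C, 4.41 to 5.78 in the Ad-Hif1a libraries and 5.83 to 7.79 in the Ad-Hif2a libraries, although with Ad-Hif2a 2 of the 3 tested, Pecam1 and Egfl7, rose and Kdr fell. Of these, Pecam1 stood at 0 to 0.160 CPM with Ad-C and 0.435 to 1.53 CPM with the vectors, and Cdh5 at 0 to 0.29 CPM. Pecam1 was under the filter's minimum in every Ad-C library and could be called only as a rise. Of all genes tested, 7.87% rose and 7.72% fell with Ad-Hif2a.

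Among the collagens that span the cell membrane, Col23a1 rose. It stood at 4.31, 5.10 and 6.15 CPM with Ad-C, 11.3, 13.03 and 10.7 CPM with Ad-Hif1a and 15.04, 14.3 and 9.47 CPM with Ad-Hif2a. The lowest vector library, at 9.47 CPM, was above the highest Ad-C library, at 6.15 CPM, and the log2 fold changes were 1.16 ± 0.24 with Ad-Hif1a (adjusted p = 0.0259) and 1.31 ± 0.25 with Ad-Hif2a (adjusted p = 0.0137), the largest rise of any chain. Col17a1, the hemidesmosome collagen of skin, held 2 to 17 counts a library, with log2 fold changes of 0.25 and -0.11 and SEs of 0.73 and 0.75. Col13a1 and Col25a1, known from the neuromuscular junction, held 0 to 10 counts and were not tested. The summed level of the 10 skeletal muscle markers, with 1 at 0 throughout, was 61.5 to 78.1 CPM with Ad-C. It was 9.01 to 11.1 CPM in the Ad-Hif1a libraries and 4.31 to 8.17 in the Ad-Hif2a libraries. Of the 4 tested, 2, Myh1 and Myh8, fell and Acta1 rose with each vector. Over all genes, falls made up 5.22% under Ad-Hif1a and 7.72% under Ad-Hif2a, and rises 6.04% and 7.87%. Myh8 was under the filter's minimum, 0.573 CPM, in every vector library and could be called only as a fall. The part of the change in muscle markers in the chains was not tested.

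Col26a1 and Col28a1, whose roles are less known, were at the bottom of the scale. Col26a1 held 39, 33 and 34 counts with Ad-C, 10, 9 and 4 with Ad-Hif1a and 3, 4 and 3 with Ad-Hif2a. It was the only chain that reached the filter's minimum in the Ad-C libraries alone, so that a call could come only from a fall. The log2 fold changes were -2.12 ± 0.38 with Ad-Hif1a (adjusted p = 0.0137) and -3.19 ± 0.43 with Ad-Hif2a (adjusted p = 0.00337), and no vector library came within 3-fold of the lowest Ad-C library. Col9a2 and Col10a1 also needed their Ad-C libraries to pass the filter. Beside 3 of Ad-C, Col9a2 reached the minimum in 1 library of each vector and Col10a1 in 1 of Ad-Hif1a. Col28a1 held 21, 14 and 27 counts with Ad-C, 17, 29 and 21 with Ad-Hif1a and 10, 7 and 1 with Ad-Hif2a. Its log2 fold changes of 0.21 and -1.64 were not called, and the low end came from Ad-Hif2a replicate 3. The last chains left untested, Col4a3 and Col4a4, which join Col4a5 in the kidney filter, held 0 to 6 counts.

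The collagen chains took up a smaller part of all counts with either vector. They made up 8.05, 7.70 and 8.36% of the counts with Ad-C, 6.92, 7.05 and 6.85% with Ad-Hif1a and 5.73, 6.91 and 5.30% with Ad-Hif2a. The vector libraries were all below the Ad-C libraries, with mean differences of -1.10 and -2.06 percentage points (exact permutation test over libraries, two-sided, p = 0.1 for each, the smallest p that 3 against 3 allows). Ad-Hif2a differed from Ad-Hif1a by -0.96 points (exact permutation p = 0.2), with overlapping libraries. Most collagen counts were type I, which made up 71.8% ± 0.344 (SD, n = 3) of the collagen counts with Ad-C, 68.6% ± 3.32 with Ad-Hif1a and 69.2% ± 4.197 with Ad-Hif2a. Its share was highest in Ad-Hif2a replicate 3, at 74.0%, and lowest in Ad-Hif1a replicate 3, at 65.6%. The mix of the rest differed from Ad-C. Type III made up 7.56% ± 0.187 with Ad-C, 12.2% ± 1.22 with Ad-Hif1a and 12.6% ± 2.35 with Ad-Hif2a, and each vector library was above each Ad-C library. Type VI went the other way, at 6.66% ± 0.156, 4.67% ± 0.640 and 4.56% ± 0.951. Type V made up 4.59% ± 0.0737, 5.74% ± 0.656 and 5.84% ± 1.08, and type IV 1.37% ± 0.0684, 1.67% ± 0.0306 and 1.57% ± 0.0995. Type XII made up 5.16% ± 0.231, 4.22% ± 2.16 and 3.48% ± 1.95, with its lowest share, 1.42%, in Ad-Hif2a replicate 3. These shares are of counts, in which longer transcripts weigh more, and they were not tested.

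**Figure D3:**
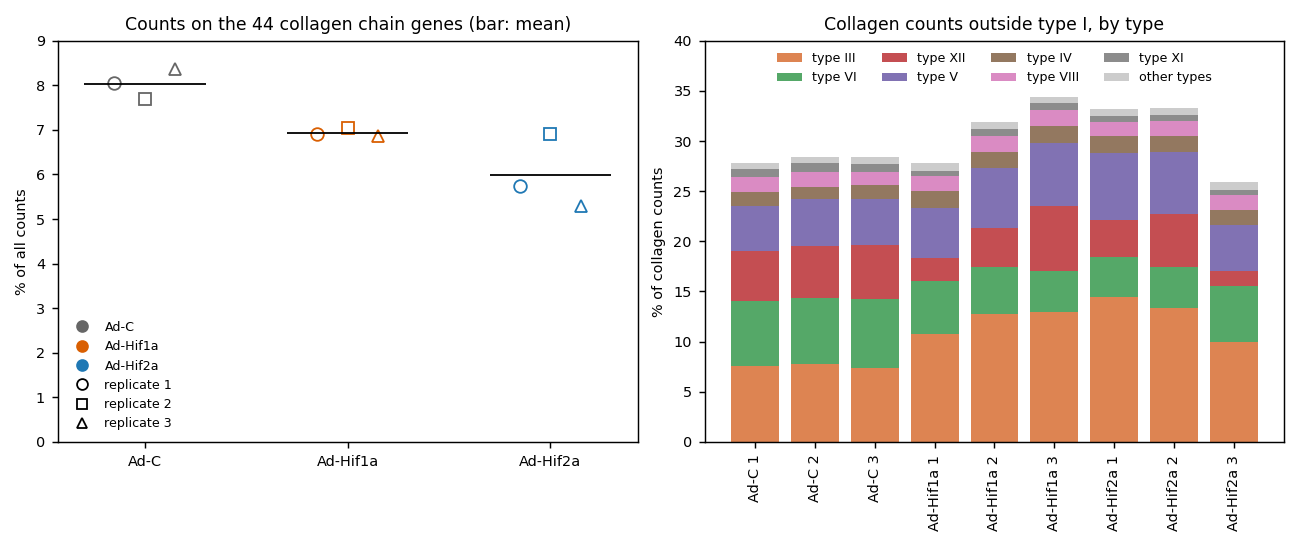
Left, percentage of all counts on the 44 collagen chain genes, 1 point per library with the group mean as a bar; right, percentage of collagen counts outside type I by type, stacked, in each library. The vector libraries lie below Ad-C on the left, and the type III block on the right is 7.37 to 7.75% with Ad-C and 9.93 to 14.4% with the vectors.

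Ratios of chains within a library do not depend on its depth or scaling, but they can depend on its trend on transcript length. Several were set apart from Ad-C in all 6 vector libraries. The ratio of Col3a1 to Col1a2 counts was 0.376, 0.361 and 0.361 with Ad-C, 0.630, 0.699 and 0.692 with Ad-Hif1a and 0.766, 0.700 and 0.693 with Ad-Hif2a. The ratio held in the libraries that stood apart, with both chains low together in Ad-Hif2a replicate 3. The ratio of Col6a3 to Col6a1 was 0.944, 0.947 and 0.972 with Ad-C, 0.200, 0.287 and 0.400 with Ad-Hif1a and 0.269, 0.381 and 0.121 with Ad-Hif2a. Its lowest values were in the libraries that stood apart, and the transcript lengths of the pair were 10106 and 4100 bases. The part of length in the ratios was not tested. For partners of the same trimer, the ratio of Col5a1 to Col5a2 was 0.664, 0.622 and 0.696 with Ad-C, 0.482, 0.409 and 0.429 with Ad-Hif1a and 0.329, 0.427 and 0.456 with Ad-Hif2a. In these the groups of either vector did not overlap with Ad-C. Smaller gaps separated the ratio of Col4a1 to Col4a2, at 1.02 to 1.12 with Ad-C, 0.899 to 0.967 in the Ad-Hif1a libraries and 0.936 to 0.981 in the Ad-Hif2a libraries. The ratio of Col6a1 to Col6a2 was 0.870 to 0.895, 0.985 to 1.01 and 1.00 to 1.23. That of Col8a1 to Col8a2 was 4.88 to 5.23, 3.70 to 4.70 and 3.28 to 3.85. The ratio of Col1a1 to Col1a2, the chains of type I, was 2.58, 2.34 and 2.51 with Ad-C, 3.22, 2.73 and 2.50 with Ad-Hif1a and 2.55, 2.50 and 4.17 with Ad-Hif2a. It was at most 2.73 in 4 vector libraries and was highest in Ad-Hif2a replicate 3 and Ad-Hif1a replicate 1. The pairs were chosen with earlier results known, so no test was made.

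**Figure D4:**
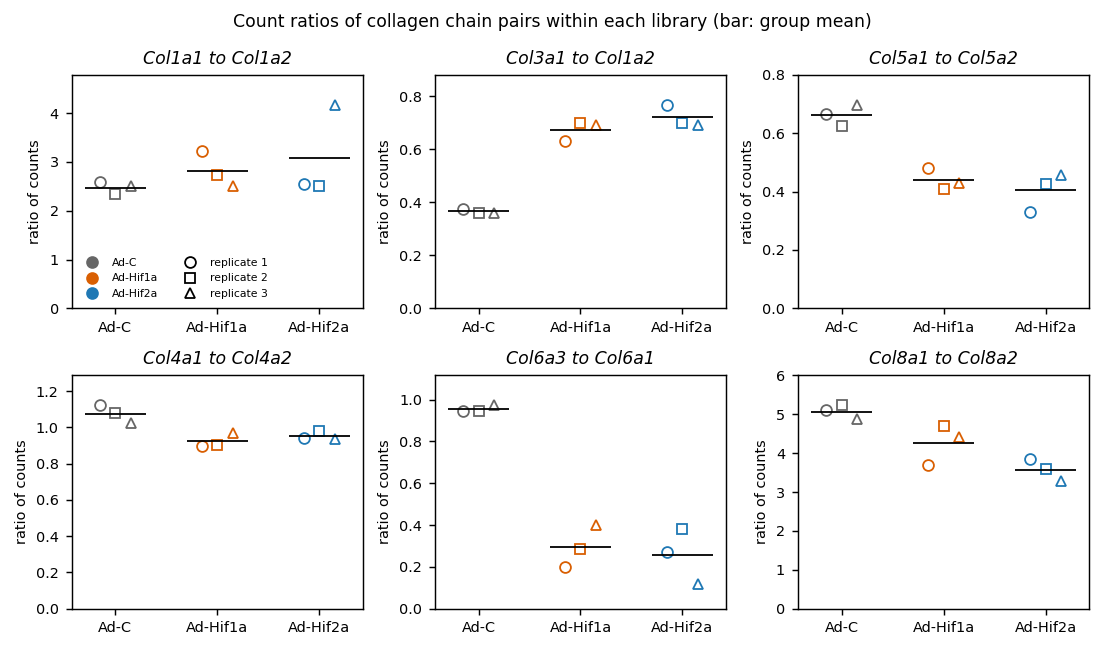
Ratio of the counts of 6 pairs of collagen chains within each library, 1 point per library with the group mean as a bar. The ratio of Col6a3 to Col6a1 lies at 0.944 to 0.972 with Ad-C and at 0.121 to 0.400 with the vectors, and only the ratio of Col1a1 to Col1a2 overlaps between Ad-C and both vectors.

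Between the vectors, no chain was called. In the comparison of Ad-Hif2a with Ad-Hif1a, edgeR called 0 of the 37 chains and 0% of all genes tested in either direction, with 1 chain and 338 genes at an unadjusted p under 0.05. DESeq2 called 0 chains and 19 genes, and edgeR without the replicate number 0 chains and 2 genes. The log2 fold changes were negative for 31 of the 37 chains, with a median of -0.22, beside 0.0027 over all genes. The lowest were those of Col28a1 at -1.85 (SE 0.62) and Col26a1 at -1.07 (SE 0.48), both chains of few counts. Among abundant chains, Col6a3, Col11a1 and Col12a1 were each at -0.41 (SE 0.29, 0.22 and 0.58), with overlapping libraries. Col8a1 was at -0.34 (SE 0.15) and Col4a2 at -0.28 (SE 0.16), and in both the Ad-Hif2a libraries lay below the Ad-Hif1a libraries.

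More chains passed the test without the pair of libraries that stood apart. With Ad-Hif1a replicate 1 and Ad-Hif2a replicate 3 left out together, a choice made after seeing the data, 5 chains rose and 13 fell with Ad-Hif1a, 18 in all, beside 14.2% and 13.4% of all genes tested. With Ad-Hif2a 6 rose and 15 fell, 21 in all, beside 14.4% and 14.3%. All chains called with every library were among them. Col3a1 rose in both, by 0.56 (adjusted p = 0.00715) and 0.59 (adjusted p = 0.00469) on the log2 scale, and so did Col5a2, at 0.43 (adjusted p = 0.022) and 0.47 (adjusted p = 0.0127). Of the further chains that fell, Col4a5 had log2 fold changes of -0.53 (adjusted p = 0.0072) and -0.74 (adjusted p = 0.000465), and Col6a1 of -0.44 (adjusted p = 0.0273) and -0.63 (adjusted p = 0.00277). Col9a2, Col9a3 and Col27a1 also fell in both comparisons. Col6a2, Col11a1 and Col15a1 now fell with Ad-Hif1a as well, and with Ad-Hif2a Col10a1 and Col11a2 fell and Col7a1 rose. Col9a2 and Col10a1 held 16 counts or fewer in each vector library and needed their Ad-C libraries to pass the filter. Across the chains tested, the log2 fold change had a Pearson correlation of 0.20 with log2 transcript length with Ad-Hif1a and 0.23 with Ad-Hif2a (n = 37 genes), against -0.24 and -0.32 over 13595 genes with a known length. With each library's trend on length removed, 10 chains were called with Ad-Hif1a, of which 5 rose, beside 7.72% of all genes tested, and 5 fell, beside 7.24%. With Ad-Hif2a 13 were called, of which 7 rose, beside 9.64%, and 6 fell, beside 9.46%. Col3a1 and Col5a2 were among the rises in both comparisons.

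The enzymes that fold and modify procollagen in the endoplasmic reticulum rose or were not called. Of 20 genes tested, 3 rose and none fell with either vector, while 6.04% of all genes tested rose with Ad-Hif1a and 7.87% with Ad-Hif2a. P4ha2, a prolyl 4-hydroxylase subunit, stood at 53.6, 53.4 and 55.2 CPM with Ad-C, 159, 127 and 113 CPM with Ad-Hif1a and 140.1, 112 and 159 CPM with Ad-Hif2a, with log2 fold changes of 1.29 ± 0.18 with Ad-Hif1a (adjusted p = 0.00557) and 1.33 ± 0.18 with Ad-Hif2a (adjusted p = 0.00378). Plod2, the lysyl hydroxylase of collagen telopeptides, stood at 66.5, 67.2 and 66.7 CPM with Ad-C, 125, 178 and 201 CPM with Ad-Hif1a and 201, 209.5 and 102 CPM with Ad-Hif2a, with log2 fold changes of 1.33 and 1.33 (adjusted p = 0.032 and 0.0259). P3h2, a prolyl 3-hydroxylase of type IV collagen, rose by 2.36 and 2.63 (adjusted p = 0.0208 and 0.0117). The median of the list was 0.094 with Ad-Hif1a and 0.019 with Ad-Hif2a. In the list of 18 genes for trimming, assembly and cross-linking outside the cell, 3 rose and 2 fell with each vector. The shares of all genes tested that rose and fell were 6.04% and 5.22% with Ad-Hif1a and 7.87% and 7.72% with Ad-Hif2a. Bmp1, which cuts the C-propeptide, had log2 fold changes of 0.93 and 1.16 (adjusted p = 0.0179 and 0.00595). Loxl2, a lysyl oxidase that cross-links fibrils, was at 0.79 and 0.78 (adjusted p = 0.0357 and 0.0303). Fmod, whose product fibromodulin guides fibril growth, stood at 2647 to 3061 CPM with Ad-C and at 902 to 1302 CPM with the vectors, and fell, with log2 fold changes of -1.20 and -1.35 (adjusted p = 0.00817 and 0.00419).

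Genes of collagen breakdown held the largest single rises among these lists. Of 15 tested, 6 rose and none fell with Ad-Hif1a, beside 6.04% and 5.22% of all genes tested. With Ad-Hif2a 6 rose and 2 fell, beside 7.87% and 7.72%. The medians of the list were 0.46 and 0.55. Mmp1a and Mmp9 were under the filter's minimum, 0.573 CPM, in every Ad-C library, so that they could be called only as rises. Mmp8, under it in Ad-C replicate 1, also needed its vector libraries to pass. The counts and medians of the list include these genes, and none were taken without them. Mmp8, a collagenase of fibrillar collagen, stood at 0.442, 0.953 and 0.642 CPM with Ad-C, 21.1, 22.6 and 21.7 CPM with Ad-Hif1a and 40.5, 31.6 and 38.4 CPM with Ad-Hif2a, with log2 fold changes of 5.00 ± 0.28 with Ad-Hif1a (adjusted p = 0.000215) and 5.76 ± 0.29 with Ad-Hif2a (adjusted p = 0.000125). Mmp9, which degrades denatured collagen and type IV, stood at 0.552, 0.168 and 0.107 CPM with Ad-C, 2.89, 1.34 and 3.11 CPM with Ad-Hif1a and 6.37, 4.23 and 5.39 CPM with Ad-Hif2a, with log2 fold changes of 3.14 and 4.32 (adjusted p = 0.00667 and 0.00142). Timp1, an inhibitor of these enzymes, was also among the 6 that rose with each vector, with log2 fold changes of 2.04 and 2.54 (adjusted p = 0.00652 and 0.00238). Of 9 receptors for collagen tested, none rose, and 4 fell with Ad-Hif1a and 5 with Ad-Hif2a, beside 5.22% and 7.72% of all genes tested. The medians of the receptors were -0.996 and -1.40. Itga2, an integrin chain for type I collagen, stood at 10.7, 11.9 and 11.8 CPM with Ad-C, 1.30, 1.40 and 1.49 CPM with Ad-Hif1a and 1.53, 2.57 and 1.53 CPM with Ad-Hif2a, with log2 fold changes of -3.03 and -2.62 (adjusted p = 0.00054 and 0.000711). Itga10, an integrin chain for type II collagen, had log2 fold changes of -1.80 and -2.08 (adjusted p = 0.00297 and 0.00136), and Ddr2, a receptor kinase for fibrillar collagen, of -0.996 and -1.40 (adjusted p = 0.0242 and 0.00539). Lair1, an inhibitory receptor of leukocytes, was also among the falls, and 4 of the 6 macrophage and osteoclast markers tested fell with each vector. The summed level of these markers was 711 to 748 CPM with Ad-C, 252 to 302 in the Ad-Hif1a libraries and 258 to 324 in the Ad-Hif2a libraries, and its part in the list was not tested.

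Of the 16 partners of type IV collagen in basement membranes that were tested, 2 rose and 2 fell with each vector. For rises, the share over all genes was 6.04% under Ad-Hif1a and 7.87% under Ad-Hif2a. For falls, it was 5.22% and 7.72%. Lama3, among the falls, was under the filter's minimum, 0.573 CPM, in every vector library and could be called only as a fall. Fbln1, which encodes fibulin-1, stood at 71.5, 70.1 and 76.6 CPM with Ad-C, 561, 509.7 and 469 CPM with Ad-Hif1a and 562, 522 and 584 CPM with Ad-Hif2a, with log2 fold changes of 2.82 ± 0.16 with Ad-Hif1a (adjusted p = 0.000202) and 2.93 ± 0.16 with Ad-Hif2a (adjusted p = 0.000138). Sparcl1, a collagen-binding relative of osteonectin, had log2 fold changes of -1.42 and -1.75 (adjusted p = 0.00726 and 0.00273). The median of the list was 0.066 with Ad-Hif1a and -0.10 with Ad-Hif2a, and the summed epithelial markers stood at 2.61 to 4.29 CPM in the 9 libraries, with 2 of 8 at 0 throughout.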

How the data were processed

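The 9 libraries were made with the CORALL kit from total RNA of primary calvarial pre-osteoblasts. Of the tools and build in the submitters' processing notes (GRCm39, bcl2fastq 2.20.0.422, Salmon, STAR and fastp), the roles are not given in the sources used here. The counts deposited by the authors are whole numbers, 1 per gene symbol, with no normalization. They were analysed with edgeR 4.0.16 in R 4.3.3. After filterByExpr and TMM, a robust quasi-likelihood fit took in all 9 libraries and had terms for the group and for the replicate number, since the study's methods name a paired test. Benjamini-Hochberg adjustment took in all genes tested, with a threshold of 0.05. The fit was tested on simulated counts with known changes. Shares of counts were compared by an exact permutation test over libraries. Transcript lengths were those of GENCODE on an earlier build than the authors', and promoters and neighbours came from RefSeq on GRCm38.p6.

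Values in every library are given for the highest pair of chains in each class, the called chains and their trimer partners, and further chains are described by ranges or by values that were chosen after they were seen. Up to 3 genes with the lowest adjusted p are named from each of 5 lists (folding and modification, processing and cross-linking, breakdown and uptake, receptors, basement membrane partners). A gene that this rule would name is not reported here. The collagen chains and all lists, with 9 lists of cell type markers, were chosen with earlier results of these data known. Of the marker lists not given in the report, the tendon list, mostly Fmod, summed to 2994 to 3377 CPM with Ad-C and 1222 to 1589 with the vectors, the smooth muscle and pericyte list to 2266 to 2433 and 2220 to 3462, and the neural list to 16.0 to 17.2 and 18.0 to 52.7. Alternatives were a fit that left out the replicate number, DESeq2 1.42.0, other composition factors (RLE, upper-quartile, none, and TMM without the collagen chains), a test of every gene with counts, a minimum of 10 counts in each library, fits of only the 6 libraries of a comparison, fits that left out each library in turn, and collagen shares without mitochondrial transcripts.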

Additional observations from a re-analysis of the deposited data

How the results depend on the processing

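Leaving out 1 library gave 1 to 19 chains called with Ad-Hif1a, 3 to 18 for Ad-Hif2a and 0 in each fit between the vectors. The collagen share then differed by -1.26 to -0.94, -2.52 to -1.72 and -1.42 to -0.62 percentage points. With the 6 libraries compared alone, 16 chains were called with Ad-Hif1a and 7 with Ad-Hif2a. Without the pair of libraries that stood apart, 18 and 21 were called. The other settings gave 7 to 10 chains for Ad-Hif1a and 9 to 16 for Ad-Hif2a, where DESeq2 called 16. The causes were not tested, and these counts stand here without the shares of all genes called in the same fits. Same-numbered deviations from the group means correlated at -0.57 to 0.098, and the lowest values, -0.57 and -0.31, each involved a library that stood apart. Whether the replicate numbers mark paired libraries is not given by the labels, and these values cannot settle it. Without the replicate block, 8 chains were called with Ad-Hif1a, 15 with Ad-Hif2a and 0 between the vectors. Over all genes, that fit called 2379 with Ad-Hif1a and 3452 with Ad-Hif2a, where the main fit called 1624 and 2247. Among uncalled chains, small changes turned sign. Over the fits that left out 1 library, Col4a1 ranged from -0.088 to 0.088 with Ad-Hif1a, and with Ad-Hif2a, Col4a2 ranged from -0.16 to 0.072, Col8a2 from -0.078 to 0.19 and Col16a1 from -0.00076 to 0.47. Without the pair that stood apart, Col4a2 was at 0.089 with Ad-Hif2a. With length offsets, Col1a1 and Col5a1 were at 0.011 and 0.036 with Ad-Hif1a, and Col4a1 and Col4a2 at 0.16 and 0.32 with Ad-Hif2a. Over the alternatives, which reuse the libraries of the main fit, the 19 calls of single chains held in 294 of 378 values and were lost in 84. The least held were calls with Ad-Hif2a. Those of Col6a2 and Col18a1 held in 10 of 20 alternatives each, and those of Col5a3 and Col15a1 in 12 of 20. At 14372589 to 18623403 counts a library, 7 chains were too low to test.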
